A study of Mus musculus with 6 samples.

Results

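The muscle acetylcholine receptor and the machinery that gathers it at the nerve contact were followed through 10 genes in RNA sequencing libraries of HL-1 cells. HL-1 is a mouse cell line derived from atrial heart muscle. The genes are the receptor subunits Chrna1, Chrnb1, Chrnd, Chrng and Chrne, the kinase Musk, its co-receptor Lrp4, its ligand Agrn, its adaptor Dok7 and the scaffold Rapsn. They were chosen by symbol, with their difference between the groups of these libraries already known, and matched to the expression table by Ensembl identifier. Of the 10, 9 were found among the 22246 genes of that table, and Chrne was not analysed here. Because the same contrast chose the genes, their differences between the groups are given as a description with no p-value. Where the text counts how many of them passed the threshold of the fit over all genes, the count is no evidence about them.

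The 6 libraries fall into 2 groups of 3. The first group carried a control shRNA and the second an shRNA against Smyd4, which codes for a SET and MYND domain protein. Both groups were HL-1 cells, labelled with heart as the tissue and C57BL/6 as the strain, and no further treatment, allele or time point is given in the labels. The labels do not state separate cultures for the replicates. P-values therefore measure the spread among these libraries alone, and that spread may be technical.

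In skeletal muscle the receptor is a pentamer of alpha, beta and delta subunits with either the fetal gamma or the adult epsilon subunit, and it opens a cation channel when acetylcholine binds. Agrin released by the motor nerve binds LRP4, which activates the receptor tyrosine kinase MuSK. DOK7 binds and sustains active MuSK, and rapsyn anchors the receptors in dense clusters below the nerve ending. Working cardiomyocytes respond to acetylcholine through muscarinic receptors, which belong to another gene family.

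Levels are in FPKM as deposited, the fragments of a gene scaled by its length and by a size factor of the library. They can thus be compared between libraries. Between genes they can be compared only as far as the single length used for each gene holds for the transcripts present. The number of reads behind each value was recovered from the whole-number steps of the deposited values, and the libraries held 20755849 to 26387605 reads. The mRNA of Smyd4, the targeted gene, stood at 12.5, 12.8 and 13.5 FPKM in the control libraries and at 12.6, 12.3 and 11.9 FPKM in the others. The groups overlapped, the difference of -0.07 on the log2 scale (SE 0.04) did not pass the limma test (adjusted p = 0.173), and an exact two-sided permutation test gave p = 0.2, where 3 against 3 libraries allow no less than 0.1. Since the target does not bear out its label at the mRNA level, the second group is called the libraries labelled Smyd4 shRNA.

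Markers of the labelled cell type were at or near 0 for the most part. Of 12 atrial cardiomyocyte markers, 10 were listed, and 6 of these (Myl7, Myl4, Myh6, Actc1, Tbx5 and Ryr2) lay below 1 FPKM in all 6 libraries, while Tnnt2, Nkx2-5, Gata4 and Nppb were above it in the control libraries. The summed level of the 10 was 20.5 to 22.2 FPKM in the control libraries and 28.3 to 30.1 FPKM in the libraries labelled Smyd4 shRNA. Of the 4 tested, Tnnt2, Nkx2-5 and Gata4 rose, while Nppb fell from 2.15 to 0.484 FPKM (limma adjusted p = 0.00096). Nppa and Sln were not analysed here. For the 11325 genes averaging 1 FPKM or more over the 6 libraries, limma on log2(FPKM + 0.5) with a Benjamini-Hochberg adjusted p under 0.05 called 5474 genes, which is 48.3% of those tested, of which 2839 were higher and 2635 lower than in control.

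Receptor subunit mRNAs were lower in the libraries labelled Smyd4 shRNA, and the subunits were not lower by the same factor. Chrnd was 9.56-fold lower, Chrna1 5.20-fold, Chrng 4.21-fold and Chrnb1 1.93-fold. Among the clustering genes Dok7 was 3.48-fold lower, Rapsn 1.60-fold and Musk 1.41-fold, Lrp4 was 10.3% lower, and Agrn alone was higher, by 1.13-fold. All 9 listed genes had groups that did not overlap, 8 of them lower and 1 higher. Over all 22246 listed genes the groups were apart in the lower direction for 20.3% and in the higher direction for 18.4%. Of the 7 genes that reached a mean of 1 FPKM, 5 lay past the threshold in the lower direction and 1 in the higher direction, and Lrp4 did not reach it. Over all tested genes 23.3% were called lower and 25.1% higher. Chrng and Dok7 lay below that mean and were not tested. The median log2 difference was -0.65 over those 7 genes and 0.02 over all tested genes. With edgeR on recovered reads 9 of 9 lay past it, where 49.5% of its 13775 genes did, and with no filter on low values 8 of 9 did, where 25.3% of all genes did. The choice of genes used this same contrast, so these counts, shares and medians support nothing about them.

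**Figure D1:**
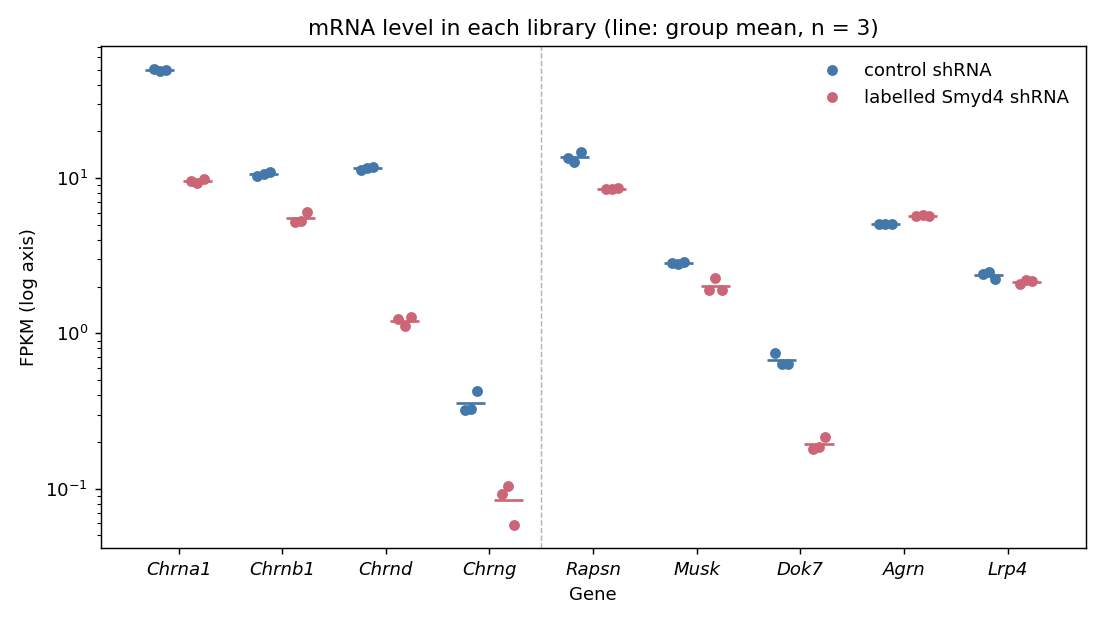
Level of each listed gene in each of the 6 libraries (FPKM, logarithmic axis), with points for libraries coloured by group and bars for group means. The points of the groups are apart for all 9 genes, widely for Chrnd (11.6 against 1.21 FPKM on average) and narrowly for Lrp4 (2.39 against 2.14 FPKM).

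Upstream sequences of some of the receptor and clustering genes are shown first, with their E-boxes marked. E-boxes are the letters that MyoD-family transcription factors are known to read. The RefSeq promoter table (GRCm38.p6) held 7 of the 10 genes, in 9 windows of 250 bases before a transcript start. Chrnd, Rapsn and Lrp4 were not matched. Below, each sequence runs 5′ to 3′ on the gene's strand, any exonic bases are left out, and capitals mark the 6-letter E-box pattern CANNTG, which reads the same pattern on both strands. Chrna1 (chr2:73580339-73580588, minus strand), Chrng (chr1:87205561-87205809, plus strand) and Musk (chr4:58285712-58285959, plus strand) hold 3 E-boxes each, as does Chrnb1 (chr11:69795944-69796067, minus strand). Agrn (chr4:156197489-156197738, minus strand) holds none in this window and 1 in its other window.
Chrna1: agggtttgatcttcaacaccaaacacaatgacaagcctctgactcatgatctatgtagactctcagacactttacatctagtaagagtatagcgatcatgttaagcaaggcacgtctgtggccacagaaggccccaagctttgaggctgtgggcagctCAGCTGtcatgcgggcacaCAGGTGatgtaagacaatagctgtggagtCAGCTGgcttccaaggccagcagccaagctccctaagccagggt
Chrng: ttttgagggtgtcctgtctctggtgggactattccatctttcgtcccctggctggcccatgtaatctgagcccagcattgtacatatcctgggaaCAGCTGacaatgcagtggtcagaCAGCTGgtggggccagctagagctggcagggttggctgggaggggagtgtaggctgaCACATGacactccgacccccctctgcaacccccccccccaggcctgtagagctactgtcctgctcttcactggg
Musk: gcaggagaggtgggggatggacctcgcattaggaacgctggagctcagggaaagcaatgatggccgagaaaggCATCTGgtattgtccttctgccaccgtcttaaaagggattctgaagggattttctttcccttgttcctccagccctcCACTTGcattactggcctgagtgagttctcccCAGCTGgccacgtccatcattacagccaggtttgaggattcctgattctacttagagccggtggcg
Chrnb1: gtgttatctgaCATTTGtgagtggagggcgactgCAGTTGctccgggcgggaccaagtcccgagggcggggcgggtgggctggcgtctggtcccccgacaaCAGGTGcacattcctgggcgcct
Agrn: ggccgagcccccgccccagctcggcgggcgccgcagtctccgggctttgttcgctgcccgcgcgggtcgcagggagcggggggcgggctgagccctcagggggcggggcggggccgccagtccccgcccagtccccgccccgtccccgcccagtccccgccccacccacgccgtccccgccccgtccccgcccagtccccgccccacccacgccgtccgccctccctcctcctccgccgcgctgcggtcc

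In the Chrna1 window the E-boxes begin 92, 73 and 44 bases before the start, and the outer pair reads CAGCTG. In the Chrng window they begin 155, 132 and 75 bases before the start, and the first 2 read CAGCTG. The Musk window has E-boxes 177, 100 and 68 bases before the start, the last reading CAGCTG, and the Chrnb1 window has them at 119, 96 and 29 bases, none reading CAGCTG. The pattern CANNTG occurred in 7 of the 9 windows and in 66.2% of all 32851 promoter windows of that length, and at least 3 times in 4 of the 9 against 12.2% of all. CAGCTG, a subset of CANNTG, occurred in 4 of the 9 (Chrna1, Chrng, Musk and Chrne) against 13.0% of all, and at least 2 times in 2 of the 9 (Chrna1 and Chrng) against 1.26% of all. The N-box CCGGAA, the letters that GABP is known to bind upstream of synaptic genes, was searched on both strands and occurred in 1 of the 9, that of Chrne, against 12.0% of all. The second Agrn window and 1 of the 2 Dok7 windows held 1 E-box each, and the other Dok7 window none. A match is a run of letters and not a site in use. The Chrng window, the second Agrn window and the Dok7 window without an E-box lie inside their genes as the authors bounded them. Chrnd, the gene lower by the largest factor, had no window, and any link between these matches and the levels was not tested.

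Chrna1 codes for the alpha subunit, which forms the principal face of the acetylcholine binding site and is present as a pair in each receptor. Its gene (ENSMUSG00000027107) is protein coding and lies on the minus strand at chr2:73563215-73580338 of GRCm38. Chrna1 stood at 50.6, 49.0 and 50.0 FPKM in the control libraries and at 9.64, 9.27 and 9.85 FPKM in the libraries labelled Smyd4 shRNA. Every control library was high and every other library low, with no value in between. The means were 49.9 ± 0.827 and 9.59 ± 0.298 FPKM (SD, n = 3 each), a level 80.8% lower, resting on 5093 to 5566 and 895 to 1105 reads per library. On the log2 scale Chrna1 was -2.32 (SE 0.03) relative to control, the 39th most negative difference of the 11325 tested genes. In level it went from percentile 94.7 of listed genes in the control libraries to percentile 75.0.

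Chrnd codes for the delta subunit, which forms one of the binding sites together with an alpha subunit. The gene (ENSMUSG00000026251) lies at chr1:87190607-87200070 on the plus strand, and Chrng starts 4587 bases beyond its end on the same strand. Chrnd stood at 11.2, 11.7 and 11.7 FPKM in the control libraries and at 1.23, 1.12 and 1.28 FPKM in the libraries labelled Smyd4 shRNA, again with a wide gap between the groups. The means were 11.6 ± 0.274 and 1.21 ± 0.0819 FPKM, on 885 to 979 and 87 to 106 reads. The log2 difference was -2.82 (SE 0.05), the 18th most negative of all tested genes, and its level went from percentile 77.9 to percentile 51.2 of listed genes. Because the pseudocount of 0.5 pulls in low values, the difference on recovered reads was larger, at -3.27 with edgeR, and it was -3.07 in the authors' deposited table.

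Chrnb1 codes for the beta subunit, a structural subunit that becomes phosphorylated on tyrosine when MuSK is active. The gene (ENSMUSG00000041189) lies at chr11:69784036-69795943 on the minus strand. Chrnb1 stood at 10.4, 10.7 and 10.9 FPKM in the control libraries and at 5.23, 5.33 and 6.01 FPKM in the libraries labelled Smyd4 shRNA. All control values exceeded all others, by a smaller margin than for Chrna1 or Chrnd. The means were 10.6 ± 0.263 and 5.52 ± 0.424 FPKM, with 628 to 699 and 315 to 346 reads, and the log2 difference was -0.89 (SE 0.05).

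Chrng, the fetal subunit that the epsilon subunit replaces as muscle matures, was a low mRNA in every library. Its gene (ENSMUSG00000026253) lies at chr1:87204657-87212694 on the plus strand. Chrng stood at 0.321, 0.324 and 0.426 FPKM on 32 to 45 reads in the control libraries, and at 0.0919, 0.105 and 0.0580 FPKM on 5 to 11 reads in the libraries labelled Smyd4 shRNA. The groups were apart, but the low counts limit the precision of the ratio. On log2(FPKM + 0.5) the difference was -0.55, while edgeR on recovered reads gave -2.04 and DESeq2 gave -2.06, and the authors' deposited table gave -1.05. Chrne, the adult counterpart, has its gene at chr11:70614883-70619216 in the GENCODE M21 annotation.

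The 4 measured subunits added up to 72.6, 71.7 and 73.1 FPKM in the control libraries and to 16.2, 15.8 and 17.2 FPKM in the libraries labelled Smyd4 shRNA, a sum 4.42-fold lower. The mixture also differed. For each 100 FPKM of Chrna1 there were 20.5, 21.8 and 21.8 FPKM of Chrnb1 in the control libraries, and there were 54.3, 57.5 and 61.0 FPKM in the others. The relative level of Chrnb1 was thus higher in every library labelled Smyd4 shRNA, because Chrna1 was lower by the larger factor. Chrnd per 100 FPKM of Chrna1 went the other way, at 22.2, 23.9 and 23.5 in control against 12.8, 12.1 and 13.0 in the others. Chrnb1 and Chrnd were nearly level in the control libraries, with a ratio of 0.921 ± 0.00729, and Chrnb1 exceeded Chrnd 4.57-fold ± 0.286 in the libraries labelled Smyd4 shRNA. Chrng per 100 FPKM of Chrna1 overlapped between the groups, with means of 0.716 and 0.890. Of the summed subunit FPKM, Chrna1 made up 68.9% in control and 58.5% in the other libraries, Chrnb1 14.7% and 33.6%, and Chrnd 16.0% and 7.37%. In bulk RNA, fewer cells that carry a transcript and less of it per cell cannot be told apart.

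**Figure D2:**
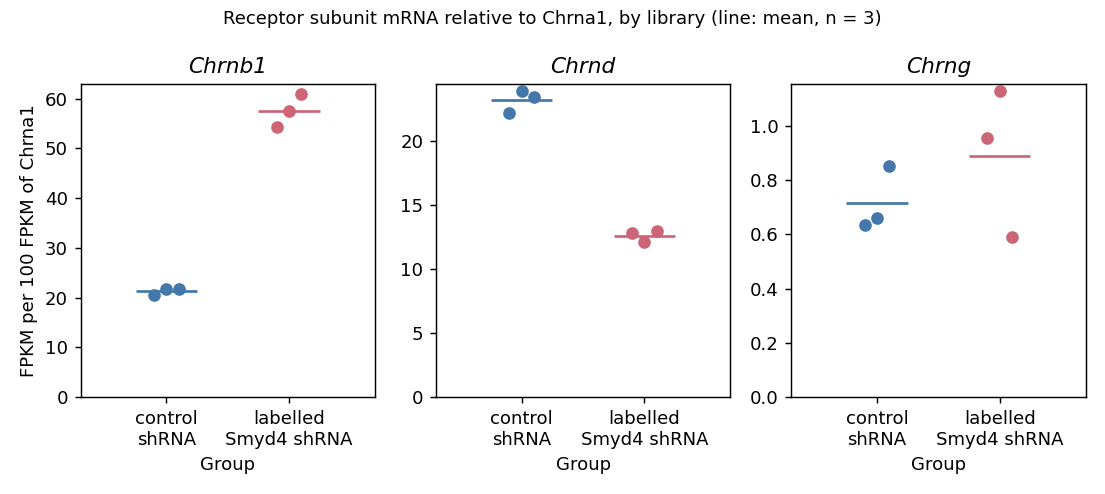
Level of Chrnb1, Chrnd and Chrng in each of the 6 libraries, in FPKM per 100 FPKM of Chrna1 on axes that start at 0 and differ between the panels, with points for libraries and lines for group means. Chrnb1 per 100 FPKM of Chrna1 is 20.5 to 21.8 in the control libraries and 54.3 to 61.0 in the libraries labelled Smyd4 shRNA, whereas Chrnd per 100 FPKM of Chrna1 is 22.2 to 23.9 and 12.1 to 13.0.

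Agrn codes for agrin, the signal from nerve to muscle, a large heparan sulfate proteoglycan that non-neural cells also make in forms that cluster receptors poorly. These gene-level values do not separate its forms. The gene (ENSMUSG00000041936) lies at chr4:156165290-156197488 on the minus strand. Agrn stood at 5.06, 5.09 and 5.09 FPKM in the control libraries and at 5.66, 5.77 and 5.73 FPKM in the libraries labelled Smyd4 shRNA. The difference was small, and it exceeded the spread of either group because the replicates lay close together. The means were 5.08 ± 0.0175 and 5.72 ± 0.0521 FPKM, with 1119 to 1199 and 1101 to 1374 reads, and the log2 difference was 0.16 (SE 0.04).

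Lrp4 codes for the agrin receptor on the muscle side, a member of the LDL receptor family. The gene lies at chr2:91457511-91513779 on the plus strand in GENCODE M21, with 411782 bases between it and Rapsn. Lrp4 stood at 2.41, 2.49 and 2.26 FPKM in the control libraries and at 2.07, 2.20 and 2.17 FPKM in the libraries labelled Smyd4 shRNA. The lowest control library and the highest other library were close to one another. The log2 difference was -0.13 (SE 0.06), on 471 to 621 reads per library, and -0.16 with edgeR on recovered reads.

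Musk codes for the receptor tyrosine kinase at the centre of the pathway. The gene (ENSMUSG00000057280) lies at chr4:58285960-58374303 on the plus strand. Musk stood at 2.86, 2.82 and 2.88 FPKM in the control libraries and at 1.90, 2.27 and 1.91 FPKM in the libraries labelled Smyd4 shRNA, so replicate 2 of the latter came nearest to control without reaching it. The means were 2.85 ± 0.0333 and 2.02 ± 0.216 FPKM, with 252 to 276 and 149 to 217 reads, and the log2 difference was -0.41 (SE 0.07).

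Dok7 codes for the adaptor that dimerises and activates MuSK from inside the cell. The gene (ENSMUSG00000044716) lies at chr5:35056766-35087839 on the plus strand. Dok7 stood at 0.743, 0.632 and 0.637 FPKM in the control libraries and at 0.179, 0.185 and 0.215 FPKM in the libraries labelled Smyd4 shRNA. All control libraries were clearly the higher ones, on 64 to 76 reads against 19 to 20. The log2 difference was -0.76 on log2(FPKM + 0.5), -1.81 with edgeR on recovered reads, -1.80 with DESeq2 and -1.24 in the authors' deposited table.

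Rapsn codes for rapsyn, the cytoplasmic scaffold that binds receptors one to another and to the cytoskeleton. The gene (ENSMUSG00000002104) lies at chr2:91035620-91045729 on the plus strand. Rapsn stood at 13.5, 12.7 and 14.8 FPKM in the control libraries and at 8.54, 8.52 and 8.60 FPKM in those labelled Smyd4 shRNA. The control libraries varied more among themselves and stayed above the others. The means were 13.7 ± 1.04 and 8.55 ± 0.0439 FPKM, with 544 to 676 and 321 to 402 reads, and the log2 difference was -0.65 (SE 0.05).

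**Figure D3:**
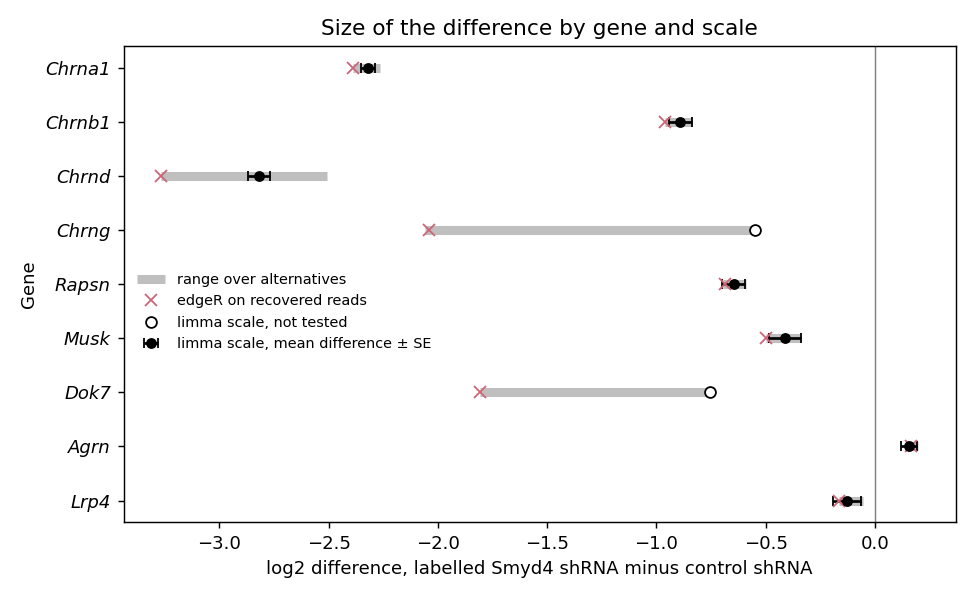
Difference of each listed gene between the groups (labelled Smyd4 shRNA minus control, log2(FPKM + 0.5)) with the limma standard error where the gene was tested, open circles where it was not, crosses for the edgeR estimate on recovered reads and grey bars for the range over the alternatives. Chrnd (-2.82) and Chrna1 (-2.32) lie farthest below 0, Agrn (0.16) lies above it, and the 2 estimates part for the low genes Chrng and Dok7.

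The 5 clustering genes together held 24.6, 23.8 and 25.7 FPKM in the control libraries and 18.3, 18.9 and 18.6 FPKM in the libraries labelled Smyd4 shRNA, a sum 1.32-fold lower beside 4.42-fold for the subunits. Chrna1 exceeded Rapsn 3.66-fold ± 0.244 in the control libraries and 1.12-fold ± 0.0299 in the others. In the control libraries the levels ran from Chrna1 down through Rapsn, Chrnd, Chrnb1, Agrn, Musk, Lrp4 and Dok7 to Chrng, and no neighbours in that order overlapped. In the libraries labelled Smyd4 shRNA the order was Chrna1, Rapsn, Agrn, Chrnb1, Lrp4, Musk, Chrnd, Dok7 and Chrng. There the ranges of Agrn and Chrnb1 overlapped, as did those of Lrp4 and Musk. Chrnd thus came 3 places below Chrnb1 in the latter, and directly above it in control.

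The other genes of the pathway were read from 8 lists of 104 genes, of which 87 were listed and 70 tested. Of these 70, 18 rose, 29 fell and 23 did not pass, so 67.1% were called, beside 48.3% over all tested genes. Over all tested genes 25.1% were called higher and 23.3% lower, and these shares stand beside the counts of each list below. The median log2 difference of the 70 was -0.07, beside 0.02 over all tested genes. The lists were chosen with earlier results of these data known, and genes named from them were mostly those with the smallest adjusted p. Their counts and adjusted p-values are therefore a description and no evidence about the lists. Neuronal nicotinic subunits, which form the receptors of ganglia and brain, stayed near 0. Of 11 such genes 3 were listed and none reached the mean of 1 FPKM. Chrnb2 stood at 0.110 FPKM in control and 0.143 FPKM in the other libraries, and Chrnb4 at 0.0196 and 0.0363 FPKM, the latter on 0 to 4 reads a library. None of the 4 genes for acetylcholine synthesis and loading was analysed here.

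Among 24 tested signalling partners downstream of MuSK, 4 rose, 12 fell and 8 did not pass, with a median of -0.09. Src, of a tyrosine kinase family that keeps receptor clusters stable, fell from 25.4 ± 0.941 to 16.6 ± 0.386 FPKM (log2 -0.60, limma adjusted p = 5.2e-06). The other listed kinases of that family differed in direction. Yes1 fell by 0.23 (limma adjusted p = 0.00706), while Fyn rose from 32.6 to 34.7 FPKM (log2 0.09, limma adjusted p = 0.0354). Abl1, a kinase that acts with MuSK, fell from 14.4 ± 0.530 to 10.9 ± 0.0799 FPKM (log2 -0.38, limma adjusted p = 6.2e-05). Dvl2, a Dishevelled protein, rose from 12.2 ± 0.570 to 14.9 ± 1.07 FPKM (log2 0.28, limma adjusted p = 0.00442), and Csnk2b, a subunit of casein kinase 2, rose by 0.15 on the log2 scale (limma adjusted p = 0.00571).

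Among 8 tested genes of receptor assembly and glycosylation, 5 rose, none fell and 3 did not pass, with a median of 0.11, beside 25.1% of all tested genes called higher. Canx, the chaperone calnexin that folds new subunits in the endoplasmic reticulum, rose from 143 ± 1.66 to 157 ± 2.36 FPKM (log2 0.14, limma adjusted p = 0.00205). Alg2, a mannosyltransferase of N-glycosylation, rose by 0.21 (limma adjusted p = 0.00335). The genes of this list that passed thus differed in the direction opposite to that of the subunit mRNAs.

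The synaptic basal lamina list had 6 tested genes, of which 4 rose and 2 fell. Lama4, the laminin alpha 4 chain, fell from 2.47 ± 0.163 to 0.221 ± 0.0310 FPKM, 11.2-fold lower (log2 -2.04, limma adjusted p = 1.5e-06). Hspg2, which codes for perlecan, fell by 0.21 on the log2 scale (limma adjusted p = 0.00928). Nid2, or nidogen 2, rose from 4.56 ± 0.213 to 6.92 ± 0.213 FPKM (log2 0.55, limma adjusted p = 4e-05), and Lamc1, the laminin gamma 1 chain, rose by 0.24 (limma adjusted p = 0.000363).

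In the postsynaptic membrane skeleton 3 of 9 tested genes rose, 4 fell and 2 did not pass. Dtna, or alpha-dystrobrevin, which helps to hold receptors in the mature synapse, fell from 3.57 ± 0.263 to 1.26 ± 0.0567 FPKM, 2.84-fold lower (log2 -1.21, limma adjusted p = 4.9e-06). Nes, the intermediate filament nestin, fell from 124 ± 4.54 to 73.8 ± 1.62 FPKM (log2 -0.75, limma adjusted p = 1.1e-06). Dtnb, the related beta-dystrobrevin, rose by 0.39 (limma adjusted p = 0.00205), and Dag1, which codes for dystroglycan, rose by 0.21 (limma adjusted p = 0.00026).

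Of 21 tested genes in the transcriptional control of synaptic genes, 2 rose, 10 fell and 9 did not pass, with a median of -0.12. Myod1, the myogenic factor that binds E-boxes, stood at 18.6, 18.1 and 19.7 FPKM in the control libraries and at 6.11, 4.78 and 5.03 FPKM in the others. It fell 3.54-fold (log2 -1.74, limma adjusted p = 1.4e-06). Etv4, an ETS factor, fell by 0.70 (limma adjusted p = 1.9e-06), while Id2, an inhibitor of E-box binding factors, rose by 0.24 (limma adjusted p = 0.00436) and the deacetylase Hdac4 by 0.28 (limma adjusted p = 0.00141). Their relatives in the list, named after their values were seen, did not rise. Id3 fell by 0.20 (limma adjusted p = 0.00568), Hdac5 fell by 0.28 (limma adjusted p = 0.00071) and Id1 did not pass. Id4 and Hdac9 were too low to test, at 0.0911 and 0.806 FPKM in control and 0.0156 and 0.0926 FPKM in the other libraries. The remaining myogenic factors were picked out after their values were seen. Myf5 fell from 8.68 ± 0.305 to 4.83 ± 0.0678 FPKM (log2 -0.78, limma adjusted p = 2.1e-06), and Myog and Myf6 were too low to test, at 0.246 and 0.132 FPKM in control and 0.0196 and 0.0439 FPKM in the other libraries. Of 2 tested genes of neuregulin and its receptors, Nrg1, which codes for the growth factor, fell by 0.35 (limma adjusted p = 0.00471) and Erbb2 did not pass.

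**Figure D4:**
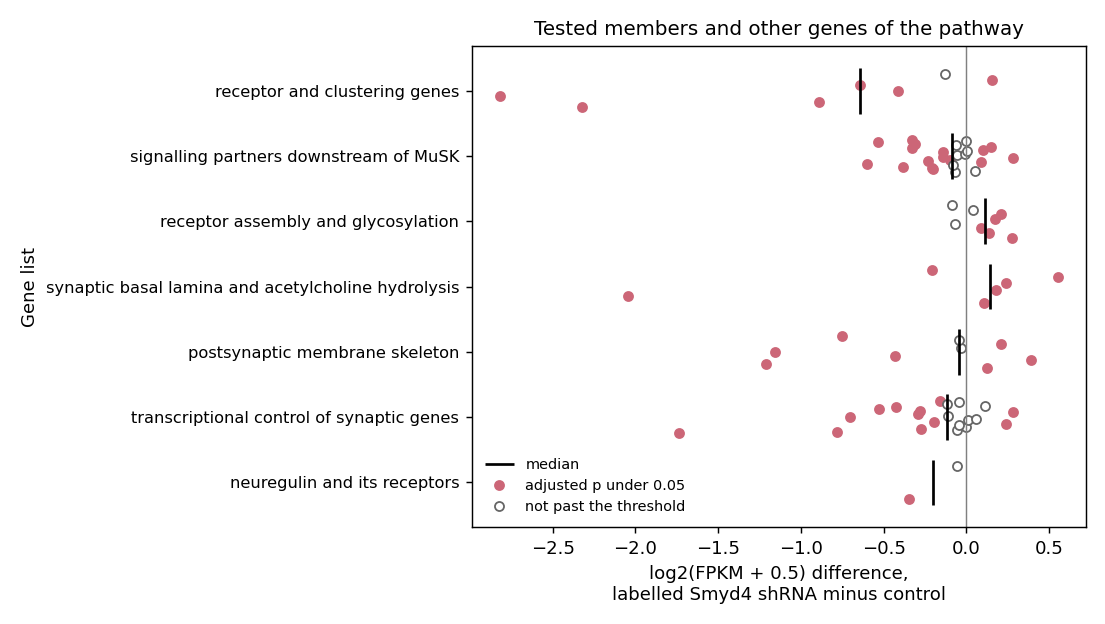
Difference between the groups (labelled Smyd4 shRNA minus control, log2(FPKM + 0.5)) for the tested genes of the receptor and clustering set and of 6 pathway lists, with filled points for genes with a limma adjusted p under 0.05, open points for the others and a bar for each median. Chrnd, Chrna1, Lama4 (-2.04) and Myod1 (-1.74) lie farthest to the left, and the medians of the pathway lists lie between -0.20 and 0.14.

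Marker lists of other cell types were read beside these genes, against a background of 23.3% of all tested genes called lower and 25.1% called higher. Of 10 listed skeletal muscle markers, 5 were tested and all 5 fell (Acta1, Mylpf, Actn3, Cacng1 and Des), and the summed level of the list was 171 to 176 FPKM in the control libraries and 117 to 120 FPKM in the others. Most of that sum came from Des, which fell from 137 to 102 FPKM, 1.33-fold. Actn3 fell 3.87-fold, Acta1 3.51-fold, Mylpf 3.27-fold and Cacng1 1.87-fold. Myh3, Tnnt3, Tnni1, Tnni2 and Pax7 were below 1 FPKM in all 6 libraries. Of 6 listed neuron markers, 4 were tested and all 4 fell, with sums of 150.5 to 158 and 29.7 to 31.6 FPKM, and Elavl3 and Syt1 were below 1 FPKM in all libraries. Fibroblast markers had 2 of 4 tested genes higher (Col1a1 and Col1a2) and 2 lower (Dcn and Pdgfra), with sums of 128 to 130 and 154 to 164 FPKM. Most of each sum came from the 2 collagen genes, at 37.6 and 60.5 FPKM in control and 69.3 and 84.9 FPKM in the others. Dcn fell 15.2-fold, from 26.3 to 1.72 FPKM (log2 -3.60), and Pdgfra fell from 4.35 to 2.94 FPKM. The macrophage list summed to 28.9 to 30.4 and 19.5 to 21.3 FPKM, most of it from Cd14, which fell from 27.9 to 18.6 FPKM (limma adjusted p = 1.5e-05), while Cd68 did not pass (1.96 and 1.72 FPKM, limma adjusted p = 0.151). Adgre1, Csf1r and Ptprc were below 1 FPKM in all libraries, and the 4 listed Schwann cell markers were all below 1 FPKM. The part of these markers in the receptor result was not tested.

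The genes whose pattern over the 6 libraries was most like that of Chrnd were sought among all tested genes, by the root mean square difference in log2(FPKM + 0.5) after centring on the control mean. The nearest were Il6 (0.0789), Nefm (0.0863), Gap43 (0.0992), Ccl2 (0.115) and Cebpd (0.120), where Il6 and Ccl2 code for a cytokine and a chemokine, Nefm and Gap43 for proteins of neurites, and Cebpd for a transcription factor. Gap43 went from 11.8 to 1.35 FPKM, Ccl2 from 205 to 31.8 FPKM and Cebpd from 30.4 to 3.48 FPKM. Il6 stood at 3.18 FPKM in control and at 0.0387 FPKM on 1 to 3 reads in the other libraries, so its place in this order depends on the pseudocount. Chrna1 came 28th in that order (0.354) and Chrnb1 289th. With 2 groups of close replicates, this measure mostly ranks genes by their difference between the groups. From the most negative log2 difference, Cebpd stood 17th, Chrnd 18th, Il6 21st, Nefm 22nd, Gap43 23rd and Ccl2 24th. The order therefore shows no shared pattern beyond that difference.

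Among tested genes beside the receptor and clustering genes the largest difference was that of Efhd1. Within 100 kb there were 62 listed neighbours, of which 37 were tested, with 8 that rose, 11 that fell, 18 short of the threshold and a median log2 difference of -0.04. These 19 of 37 stand beside 48.3% called over all tested genes, so the share of neighbours called was near the background. Efhd1, 51669 bases from Chrng and 64293 from Chrnd, fell from 6.65 to 2.80 FPKM (log2 -1.12, limma adjusted p = 1.2e-06), while Eif4e2, 1220 bases from Chrng and picked out after its values were seen, stood at 15.8 and 14.9 FPKM (log2 -0.08, limma adjusted p = 0.0410). The call of Eif4e2 was lost under 9 of 15 alternatives, with adjusted p between 0.0173 and 0.124. Wipf1, 33481 bases from Chrna1, fell by 0.47 (limma adjusted p = 2.1e-05). Chrna1os, 4512 bases from Chrna1 on the opposite strand and also picked out afterwards, stood at 1.58 and 1.53 FPKM and did not pass (limma adjusted p = 0.775).

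Next to Chrnb1, Zbtb4 lies 13 bases away on the opposite strand. Picked out after its values were seen, Zbtb4 fell by 0.42 (limma adjusted p = 0.000344), and Plscr3 fell by 0.47. Fgf11, 125 bases from Chrnb1 on the same strand and also picked out afterwards, did not pass (log2 0.01, limma adjusted p = 0.923). Of the 8 tested neighbours of Chrnb1, 4 fell and 4 did not pass. Rgs12, 17122 bases from Dok7, fell by 0.61, and Plekhn1 near Agrn fell by 0.43, against the direction of Agrn. Madd near Rapsn rose by 0.45, against the direction of Rapsn, and Eno3 near Chrne, the beta enolase of muscle, rose by 0.19. Gm13778 overlaps Rapsn on the opposite strand and stood at 0.509 and 0.435 FPKM on 4 to 11 reads a library. The sources used here do not give the strand setting of the counting, so reads of Rapsn and Gm13778 cannot be told apart.

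**Figure D5:**
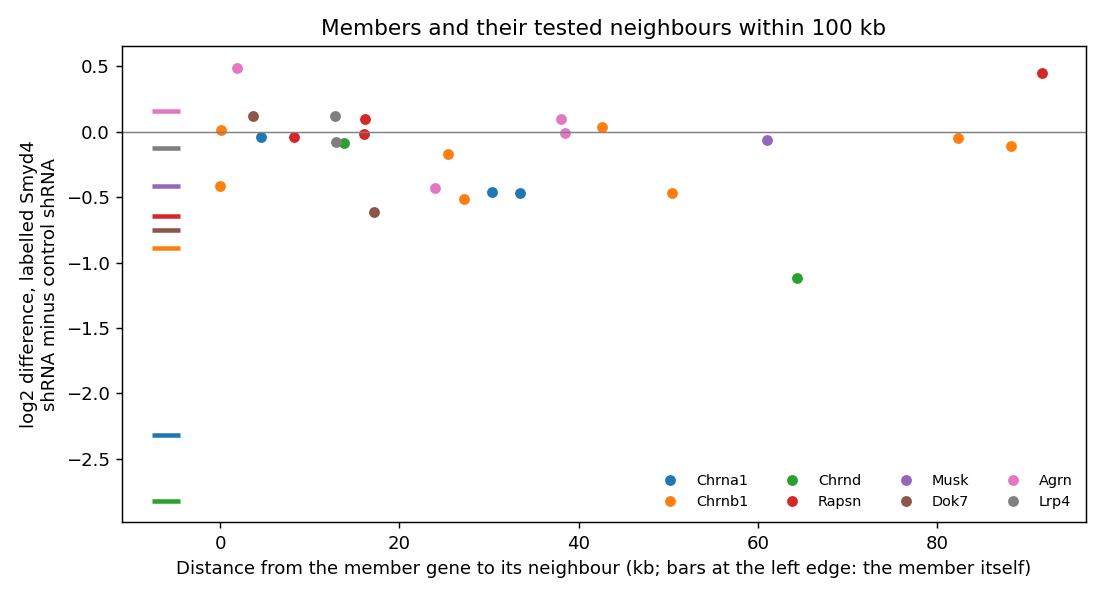
Difference between the groups (labelled Smyd4 shRNA minus control, log2(FPKM + 0.5)) of tested genes within 100 kb of each listed gene against their distance in kb, with short bars at the left for the gene itself, and with the shared neighbours of Chrng drawn once, with Chrnd, and those of Chrne left out. The bars of Chrnd (-2.82) and Chrna1 (-2.32) lie below all their neighbours, of which Efhd1 (-1.12) is the lowest.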

How the data were processed

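RNA sequencing was compared in 6 HL-1 libraries, 3 labelled control shRNA and 3 labelled Smyd4 shRNA, grouped by the labels. The submitters' processing notes name TopHat2 2.0.9, Bowtie2 2.0.6 and the build GRCm38. For the read counter, annotation, strand setting and the authors' test, the details were not given in the sources used here. Levels are the authors' FPKM as deposited for 22246 genes. The authors' deposited comparison table of 5616 genes gives a normalized signal per library (reads divided by a size factor), log2 fold changes and adjusted p-values, none above 0.0499. The deposited FPKM are scaled by those same size factors, which assume that most genes do not change.

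Whole reads were recovered from the steps of the deposited signal and FPKM: 100% of values were whole, within 1e-04 and 0.01. The authors' gene lengths served for 5616 genes and GENCODE M21 lengths for 13288. The other 3342 took the shortest length that their values allow, which makes their reads lower bounds. Replicates differed beyond sampling noise. Symbols were matched by identifier for 22134 genes, and coordinates are the authors' where listed and GENCODE M21 otherwise. Of the authors' 5616 coordinates, 4228 equal those of M21.

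Groups were compared with limma 3.58.1 (R 4.3.3, empirical Bayes with a trend) on log2(FPKM + 0.5), which understates changes of low genes, for genes averaging 1 FPKM or more, with Benjamini-Hochberg adjustment at 0.05 over all tested genes. Folds are ratios of mean FPKM, and levels are mean ± SD over 3 libraries or means. Alternatives were edgeR 4.0.16 and DESeq2 1.42.0 on recovered reads, other pseudocounts, filters and scalings, a replicate block and leaving out each library.

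The receptor genes and the lists were chosen with earlier results of these data known. Besides them, the rule named Smyd4, up to 2 genes per direction and list with the smallest adjusted p (or the 2 highest where none passed), overlapping neighbours and 1 called neighbour per gene, and the 5 genes most like Chrnd. Gapdh, a level check, stood at 595 and 576 FPKM.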

Additional observations from a re-analysis of the deposited data

How the results depend on the processing

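Under all 15 alternatives the counts of called genes stayed within 1.5 times of those reported. Of the receptor and clustering genes, between 5 and 9 were called: 5 of 5 with a filter at 5 FPKM (55.4% of its 7833 genes called), 8 of 9 without a filter (25.3% of 22246), 8 of 9 with DESeq2 (32.6% of 17068) and 9 of 9 with edgeR (49.5% of 13775). For single genes, 631 of 650 comparisons kept direction and side of the threshold and none reversed; 9 lost the call, all for Eif4e2, 1 gained it, Lrp4 with edgeR, and 9 values of untested low genes such as Chrng and Dok7 moved on the read scale. The balance of higher and lower calls over all genes was 2839 to 2635, and 2650 to 2787 with median-of-ratios scaling. Leaving out 1 library gave 4573 to 4997 calls over all genes and 6 among the receptor and clustering genes, and Smyd4 stayed between -0.10 and -0.04. Replicate numbers are shared between the groups but same-numbered libraries did not deviate together (correlations -0.03, 0.02 and 0.01), and with the replicate block 5141 genes were called, among them the same number, 6, of receptor and clustering genes. Values of Chrng and Dok7 rest on 5 to 76 reads, and their ratios are limited by that depth.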
